A study of Mus musculus with 6 samples.

Results

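A set of 10 genes of the epithelial tight junction was followed in RNA from sorted mouse prostate epithelial cells. They are the claudin genes Cldn1, Cldn3, Cldn4, Cldn7, Cldn8, Cldn10 and Cldn23, and Ocln, Tjp1 and Cgn, and were chosen by symbol. All 10 were present among the 24498 genes of the count table. The cells came from male mice of the lines Nkx3.1;EYFP and Clu;tdTomato. In the former, an Nkx3.1-CreER(T2) allele marks cells through the yellow fluorescent reporter allele Gt(ROSA)26Sortm1(EYFP)Cos, and in the latter a Clu-CreER(T2) allele marks them through the red fluorescent reporter allele Gt(ROSA)26Sortm14(CAG-tdTomato)Hze. At 8 weeks of age the mice were castrated or left intact, and 4 weeks later marker-positive cells were sorted and 2 ng of total RNA was sequenced. The groups were Nkx intact, Nkx castrate and Clu intact, each with 2 libraries, and no castrated Clu mice were analysed here. Clu intact and Nkx groups differ in mouse line, Cre driver and reporter together, which cannot be told apart. No label says whether the 2 libraries of 1 group are separate animals, and the time of Cre induction is not given, so each p-value covers only library-to-library spread, possibly a technical one.

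Tight junctions seal the space between neighbouring epithelial cells near their apical surface. Claudins are small membrane proteins that set which ions pass between cells. Some, among them Cldn1, Cldn3, Cldn4 and Cldn8, tighten the seal, whereas Cldn10 forms ion-selective pores. Occludin (Ocln) is another membrane protein of the junction, the scaffold ZO-1 (Tjp1) binds claudin tails, and cingulin (Cgn) ties the scaffold to the cytoskeleton. In the prostate these junctions part the secretions of the lumen from the tissue beneath.

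Total counts per library lay between 10220118 and 17412874, and 15045 to 18516 genes had a count. Levels are given in CPM, the usual scaling of counts to a common library total, after TMM correction for differences in RNA composition. In these units 1 count corresponded to 0.0561 to 0.0988 CPM. A gene was called when its adjusted p was under 0.05 in edgeR's quasi-likelihood test over 13846 genes, of which all 10 members were part. Summed CPM of the 8 epithelial markers was 3926 and 3611 (Nkx intact), 8212 and 10550 (Nkx castrate) and 6784 and 7753 (Clu intact). None was at 0 in all libraries. With castration 4 of them were called higher and 0 lower, beside 4.02% and 4.59% of all genes tested. In Clu intact 5 were higher and 1 lower than in Nkx intact, beside 6.29% and 5%. Against Nkx castrate 2 were higher and 2 lower in Clu intact, beside 8.82% and 8.1%. Clu itself was at 1808 and 1934 CPM in Clu intact, against 245 to 844 CPM in the Nkx libraries. RNA of other cell types was also uneven over the libraries. The 18 leukocyte markers added up to 236 CPM for Nkx castrate 1, but to 36.0 CPM for Nkx castrate 2. Nkx intact had 145 and 129.5, Clu intact 33.2 and 31.6. Fibroblast and smooth muscle markers (14) gave 2432 and 593 CPM for the castrate libraries, and 693 to 1106 CPM for the others. Endothelial markers (12) peaked at 1116 CPM, for Clu intact 1. Neuroendocrine markers (5) summed to at most 9.09 CPM. Seminal vesicle markers (6) reached 81.3 and 148 CPM with Nkx intact, but at most 4.98 CPM elsewhere. In bulk samples, fewer cells of a type and less RNA per cell cannot be told apart.

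Promoter windows of 5 members whose levels are compared below are shown first, since Cldn10, Cldn4, Cgn and Cldn1 were the members called in a comparison, and Cldn3, the neighbour of Cldn4 on chromosome 5 with 0 annotated genes between them, was called in none. Each window holds the 250 bases before an annotated start (RefSeq, GRCm38.p6), 5′ to 3′ on the gene's strand. RefSeq windows were matched for 8 of the 10 members, with 11 starts in all. Capitals mark matches, on either strand, to the GC box GGGCGG, the ETS core CCGGAA, the androgen receptor hexamer AGAACA or the grainyhead-like motif AACCNGTT.
Cldn10 start 1 (chr14:118787621-118787870, plus strand): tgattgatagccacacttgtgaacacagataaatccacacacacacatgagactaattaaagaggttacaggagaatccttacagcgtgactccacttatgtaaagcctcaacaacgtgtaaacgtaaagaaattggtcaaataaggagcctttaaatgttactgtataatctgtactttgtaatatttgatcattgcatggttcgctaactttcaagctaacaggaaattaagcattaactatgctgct
Cldn10 start 2 (chr14:118854700-118854949, plus strand): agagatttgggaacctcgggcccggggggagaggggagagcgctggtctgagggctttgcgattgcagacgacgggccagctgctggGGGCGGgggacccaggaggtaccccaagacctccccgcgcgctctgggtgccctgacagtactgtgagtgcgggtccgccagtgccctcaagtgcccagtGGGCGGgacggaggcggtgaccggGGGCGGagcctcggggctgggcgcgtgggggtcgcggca
Cldn4 (chr5:134946935-134947184, minus strand): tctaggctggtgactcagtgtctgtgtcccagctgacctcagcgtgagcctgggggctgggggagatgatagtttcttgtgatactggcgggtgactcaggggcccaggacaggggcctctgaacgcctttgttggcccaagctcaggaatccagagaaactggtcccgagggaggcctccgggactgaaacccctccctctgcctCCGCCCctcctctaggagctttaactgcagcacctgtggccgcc
Cldn3 (chr5:134985964-134986213, plus strand): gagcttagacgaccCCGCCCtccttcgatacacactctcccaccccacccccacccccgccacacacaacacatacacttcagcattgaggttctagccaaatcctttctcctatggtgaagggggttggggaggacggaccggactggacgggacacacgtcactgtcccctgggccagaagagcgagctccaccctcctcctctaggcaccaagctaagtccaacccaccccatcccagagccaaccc
Cgn (chr3:94786483-94786732, minus strand): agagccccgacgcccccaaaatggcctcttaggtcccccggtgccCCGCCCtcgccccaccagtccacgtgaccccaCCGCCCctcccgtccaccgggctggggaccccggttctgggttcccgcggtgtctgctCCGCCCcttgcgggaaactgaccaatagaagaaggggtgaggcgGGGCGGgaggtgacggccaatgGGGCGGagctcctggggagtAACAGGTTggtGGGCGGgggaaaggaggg
Cldn1 (chr16:26371840-26372089, minus strand): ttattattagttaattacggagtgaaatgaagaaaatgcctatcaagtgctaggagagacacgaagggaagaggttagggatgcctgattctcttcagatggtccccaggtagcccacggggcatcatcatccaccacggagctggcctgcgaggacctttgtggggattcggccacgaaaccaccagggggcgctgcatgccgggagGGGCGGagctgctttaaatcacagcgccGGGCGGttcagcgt

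Among 32851 windows of this length in the table, 32.74% held the GC box, 12.03% the ETS core, 16.08% the androgen receptor hexamer and 1.79% the grainyhead-like motif. The window of Cgn held 6 GC boxes and 1 grainyhead-like match, 29 bases before the start. Cldn10 start 2 held 3 GC boxes in a window of 72.4% G and C, whereas start 1 held none of the motifs at 36.0% G and C. Cldn4 and Cldn3 held 1 GC box each, at 44 and 236 bases before the start, and Cldn1 held 2. None of these 6 windows held the letters of the ETS core or the androgen receptor hexamer. A match is a description of the letters only. Counts per gene do not part the 2 starts of Cldn10, and the first transcribed bases of start 1 were not found in the GENCODE M21 transcripts.

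To compare genes with each other, CPM was divided by exon length (union of exons in GENCODE M21). Cldn4 was the highest of the 10 genes in each group, at 589 ± 81.8 CPM per kilobase in Nkx intact, 1088 ± 269 in Nkx castrate and 260.0 ± 25.5 in Clu intact (SD, n = 2 libraries each). Cldn3 followed in each group, at 177 ± 65.5, 204 ± 41.7 and 193 ± 0.483 CPM per kilobase. In every group both libraries of Cldn4 were above those of Cldn3, and both libraries of Cldn3 were above those of the other 8 genes.

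The middle of the order held Cldn8, Cldn7, Tjp1, Ocln and Cgn. In Nkx intact they ran from Cldn8 (55.3 CPM per kilobase) through Cldn7 (36.7), Tjp1 (36.3) and Ocln (24.6) to Cgn (23.8), and neither Cldn7 and Tjp1 nor Ocln and Cgn were parted by their libraries. In Nkx castrate Cgn ranked 3 at 77.9 CPM per kilobase, with both libraries above those of Cldn7 (51.7), Tjp1 (43.2), Cldn8 (35.8) and Ocln (27.1). The libraries of Cldn7, Tjp1, Cldn8 and Ocln overlapped from each gene to the next in that group. In Clu intact the order was Cldn7 (71.0), Cldn8 (63.5), Cldn10 (48.6), Tjp1 (46.7), Cgn (39.6) and Ocln (29.0), and among neighbours in this order only Cldn10 and Tjp1 overlapped.

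The low end changed places between the groups. Cldn10 was last in both Nkx groups, at 0.859 and 1.03 CPM per kilobase, and ranked 5 in Clu intact. Cldn1 was last in Clu intact at 2.41 CPM per kilobase, against 16.1 in Nkx intact and 6.68 in Nkx castrate. Cldn23, an atypical claudin with a long tail, was at 5.19, 6.41 and 9.08 CPM per kilobase in Nkx intact, Nkx castrate and Clu intact, and its libraries overlapped those of Cldn1 in Nkx castrate.

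**Figure D1:**
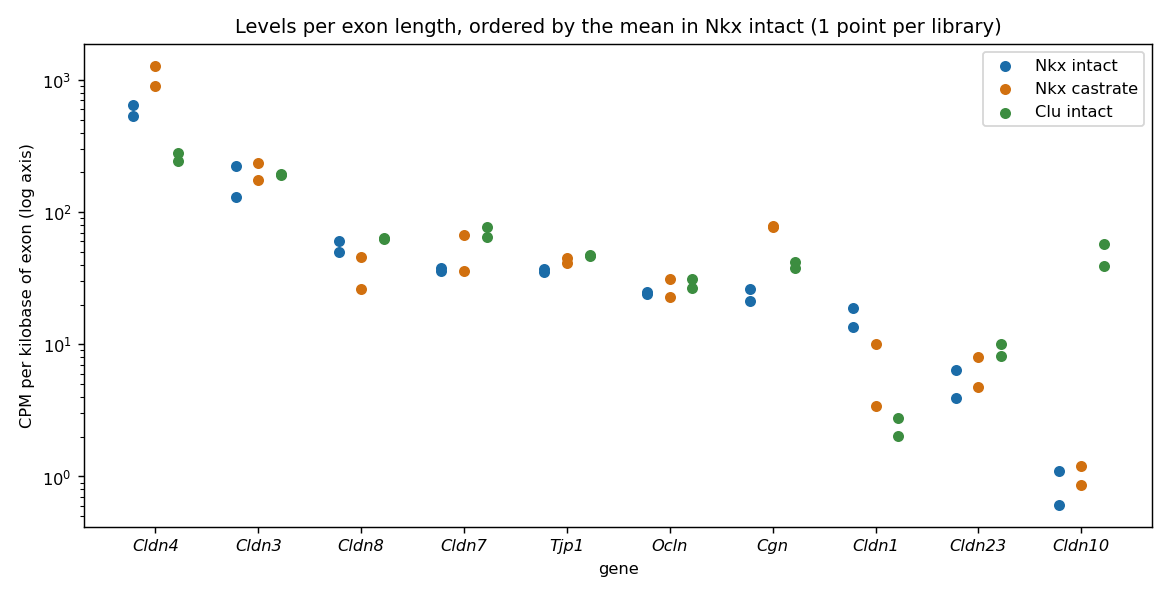
CPM per kilobase of exon (log axis) of the 10 genes in each of the 6 libraries, 1 point per library, coloured by group and ordered by the mean in Nkx intact. Cldn4 and Cldn3 lead in all groups, and Cldn10 is last in the Nkx groups but averages 48.6 CPM per kilobase in Clu intact.

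Cldn10, the pore-forming member, reached a high level in the Clu libraries alone among these 6. Its read counts were 30 and 16 (Nkx intact), 40 and 42 (Nkx castrate) and 1209 and 1593 (Clu intact). The same libraries gave 2.87 and 1.58, 2.24 and 3.10, and 102 and 150 CPM. Both Clu intact libraries were far above all 4 Nkx libraries, and the 2 Nkx groups overlapped. The level was 56.2-fold higher in Clu intact than in Nkx intact (log2 fold change 5.81, SE 0.39, edgeR quasi-likelihood adjusted p = 0.00037) and 47.2-fold higher than in Nkx castrate (5.56, SE 0.37, adjusted p = 0.000213). With castration the log2 fold change was 0.25 (SE 0.38, adjusted p = 0.76). Both calls remained in each of the 6 fits that left out a library, with log2 fold changes from 5.45 to 6.32 and from 5.28 to 5.83.

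Within a library the ratio of Cldn10 to Cldn4 does not depend on scaling. Per exon length, Cldn4 exceeded Cldn10 584-fold and 871-fold (Nkx intact), 1036-fold and 1067-fold (Nkx castrate) and 7.06-fold and 4.18-fold (Clu intact). The 3 groups did not overlap in this ratio, and the Clu libraries had the smallest excess of Cldn4.

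Cldn4, the most abundant claudin here, was lowest in Clu-marked cells. It was, in CPM, 1175 and 965 (Nkx intact), 1631 and 2322 (Nkx castrate) and 505 and 439 (Clu intact). The 3 groups did not overlap, with Nkx castrate highest and Clu intact lowest. Clu intact was 4.19-fold below Nkx castrate (log2 fold change -2.07, SE 0.23, edgeR quasi-likelihood adjusted p = 0.00146) and 2.27-fold below Nkx intact (-1.18, SE 0.23, adjusted p = 0.0158). The latter call was lost without either Nkx intact or either Clu intact library (log2 fold change -1.31 to -1.02, adjusted p up to 0.15), whereas the former remained in all 6 such fits. With castration Cldn4 had a log2 fold change of 0.89 (SE 0.23, adjusted p = 0.0529) and was not called by edgeR. Dropping a library at a time gave values from 0.60 (without Nkx castrate 2) to 1.12 (without Nkx castrate 1), and in both of these fits Cldn4 was called higher. DESeq2, limma-voom and edgeR with DESeq2 size factors, library totals, every gene with a count or a replicate block called Cldn4 higher. By edgeR with only the groups compared it was not called (0.88, adjusted p = 0.115). Nor was it with a filter of at least 1 CPM in 2 libraries (0.89, adjusted p = 0.0523).

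Cldn3 was called in no comparison while its neighbour Cldn4 was. Cldn3 had CPM values of 281 and 164 (Nkx intact), 220 and 294 (Nkx castrate) and 242 and 243 (Clu intact), and all groups overlapped. Its log2 fold changes were 0.21 (SE 0.27) with castration, 0.13 (SE 0.27) for Clu intact against Nkx intact and -0.08 (SE 0.27) for Clu intact against Nkx castrate, none called. The ratio of Cldn4 to Cldn3 per exon length was 2.90 and 4.08 (Nkx intact), 5.14 and 5.47 (Nkx castrate) and 1.44 and 1.25 (Clu intact), so that the groups did not overlap. Cldn3 overlaps Wbscr25 on the opposite strand in GENCODE M21, whose counts were 2 to 34 per library against 1661 to 3979 for Cldn3.

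Cldn1, which is needed for the water barrier of the skin, was lowest in Clu-marked cells. It was, in CPM, 90.7 and 65.2 (Nkx intact), 48.3 and 16.4 (Nkx castrate) and 13.5 and 9.78 (Clu intact). The groups did not overlap, although Nkx castrate 2 lay close to the Clu libraries. Clu intact was 6.68-fold below Nkx intact (log2 fold change -2.74, SE 0.49, edgeR quasi-likelihood adjusted p = 0.0121), a call that was lost without any 1 of those 4 libraries (-2.98 to -2.47, adjusted p up to 0.0923). The difference of Nkx castrate from Nkx intact was -1.27 (SE 0.46, adjusted p = 0.147), and -2.25 without Nkx castrate 1, when it was called (adjusted p = 0.00036). For Clu intact against Nkx castrate the value was -1.48 (SE 0.48, adjusted p = 0.0717), with -2.04 without Nkx castrate 2 (adjusted p = 0.000256) and -0.49 without Nkx castrate 1. DESeq2 called it lower in that comparison (adjusted p = 0.0116), and edgeR with every gene with a count called it lower there (adjusted p = 5.3e-06) and with castration (adjusted p = 9.97e-05).

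Basal epithelial markers moved with Cldn1 in part. The 12 markers of basal cells summed to CPM values of 5974 and 6110 (Nkx intact), 5849 and 3709 (Nkx castrate) and 3840 and 3898 (Clu intact), and none of the 12 was at 0 in all libraries. The transcription factor Trp63 was at 249 and 238, 61.5 and 34.7, and 13.2 and 24.7 CPM, and Krt5 at 399 and 393, 288 and 157, and 61.8 and 99.2 CPM in the same order. Krt14 was at 752 and 933, 753 and 291, and 243 and 323 CPM. In Nkx castrate 1 the basal sum was close to that of Nkx intact, whereas Cldn1 was lower, at 48.3 against 90.7 and 65.2 CPM. Of the 12 markers, 4 were called lower and none higher in Clu intact than in Nkx intact. With castration 2 were called lower and none higher, and in Clu intact against Nkx castrate 2 were called lower and none higher. The others were not called. Of all genes tested, 5%, 4.59% and 8.1% were called lower in these comparisons, in the same order. Their part in the difference of Cldn1 was not tested.

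**Figure D2:**
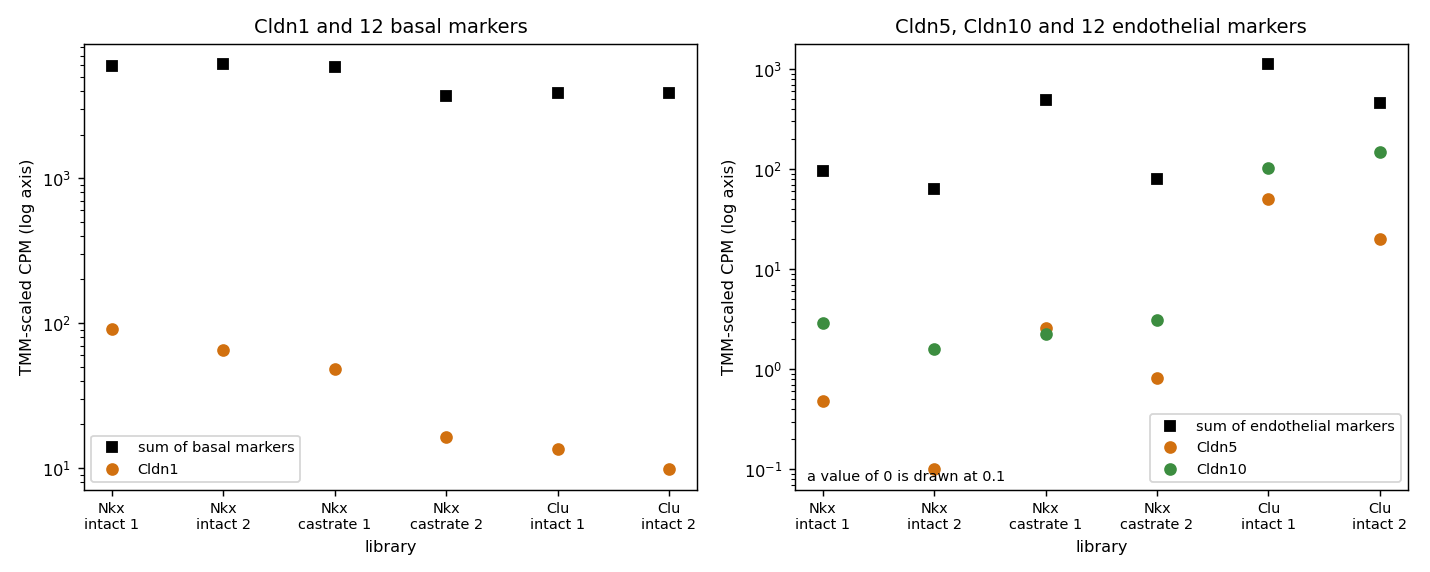
CPM (log axis) in each library of Cldn1 beside the sum of 12 basal markers (left), and of Cldn5 and Cldn10 beside the sum of 12 endothelial markers (right). Cldn1 and the basal sum are lowest in Nkx castrate 2 and the Clu libraries. Cldn5 and the endothelial sum are highest in Clu intact 1, and Cldn10 is highest in Clu intact 2.

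The other claudins of the set were called in no comparison by the edgeR fit over all 3 groups. Cldn7 was called higher in Clu intact than in Nkx intact by DESeq2 (adjusted p = 0.0204), and by edgeR with only those 2 groups (adjusted p = 0.00158) or with every gene with a count (adjusted p = 0.000382). Cldn8 was called higher in Clu intact than in Nkx castrate by DESeq2 (adjusted p = 0.0294) and limma-voom (adjusted p = 0.0498), and by edgeR with library totals (adjusted p = 0.0399) or with every gene with a count (adjusted p = 0.00191). The last of these settings also called Cldn8 lower with castration (adjusted p = 0.0442). Cldn7, which binds the adhesion protein Epcam, was, in CPM, 73.5 and 69.4 (Nkx intact), 70.2 and 131 (Nkx castrate) and 126 and 151 (Clu intact). Both Clu libraries were above both Nkx intact libraries (log2 fold change 0.95, SE 0.29, edgeR quasi-likelihood adjusted p = 0.0754), while Nkx castrate overlapped Nkx intact. Cldn7 was called in that comparison without Nkx castrate 1 (adjusted p = 0.000779) and without Nkx castrate 2 (adjusted p = 0.00123). It was also called higher with castration without Nkx castrate 1 (0.88, adjusted p = 0.0065), and higher in Clu intact than in Nkx castrate without Nkx castrate 2 (0.99, adjusted p = 0.00418).

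Cldn8, a claudin of tight epithelia such as the distal nephron, was lowest in the castrate libraries. It was, in CPM, 117 and 143 (Nkx intact), 61.9 and 107 (Nkx castrate) and 148 and 151 (Clu intact), with no overlap between Nkx castrate and the other groups. The log2 fold changes were -0.63 (SE 0.26, edgeR quasi-likelihood adjusted p = 0.199) with castration and 0.83 (SE 0.26, adjusted p = 0.0683) for Clu intact against Nkx castrate. Without Nkx castrate 2 these became -1.08 (adjusted p = 0.00385) and 1.28 (adjusted p = 0.000812). Cldn23 ranged from 7.31 to 18.5 CPM, with log2 fold changes of 0.30, 0.81 and 0.50 (SE 0.40 to 0.41) for castration, for Clu intact over Nkx intact and for Clu intact over Nkx castrate, none called.

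Among the partners, cingulin changed and the other members were not called. Cgn was, in CPM, 158 and 129 (Nkx intact), 465 and 473 (Nkx castrate) and 227 and 251 (Clu intact). The groups did not overlap, with Nkx castrate highest. It rose 3.27-fold with castration (log2 fold change 1.71, SE 0.18, edgeR quasi-likelihood adjusted p = 0.00212), and the call remained in all 6 fits that left out a library (1.57 to 1.85). Clu intact was 1.67-fold above Nkx intact (0.74, SE 0.17, adjusted p = 0.0334) and 1.97-fold below Nkx castrate (-0.97, SE 0.17, adjusted p = 0.00876). The first of these calls was lost without either Nkx intact or either Clu intact library (0.60 to 0.90, adjusted p up to 0.256), and the second without either Clu intact library (-0.88 and -1.02, adjusted p up to 0.101).

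Tjp1 and Ocln were called in no comparison. Tjp1, the gene of ZO-1, was, in CPM, 292 and 275 (Nkx intact), 324 and 351 (Nkx castrate) and 361 and 368 (Clu intact). These 3 groups did not overlap, but the log2 fold changes were 0.25, 0.36 and 0.11 (SE 0.16 each), with edgeR quasi-likelihood adjusted p of 0.389, 0.193 and 0.67. Ocln ranged from 96.2 to 133 CPM over the 6 libraries, with log2 fold changes of 0.14, 0.24 and 0.10 (SE 0.20 each). Within a library, Cgn relative to Tjp1 per exon length was 0.701 and 0.609 (Nkx intact), 1.86 and 1.75 (Nkx castrate) and 0.814 and 0.884 (Clu intact).

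**Figure D3:**
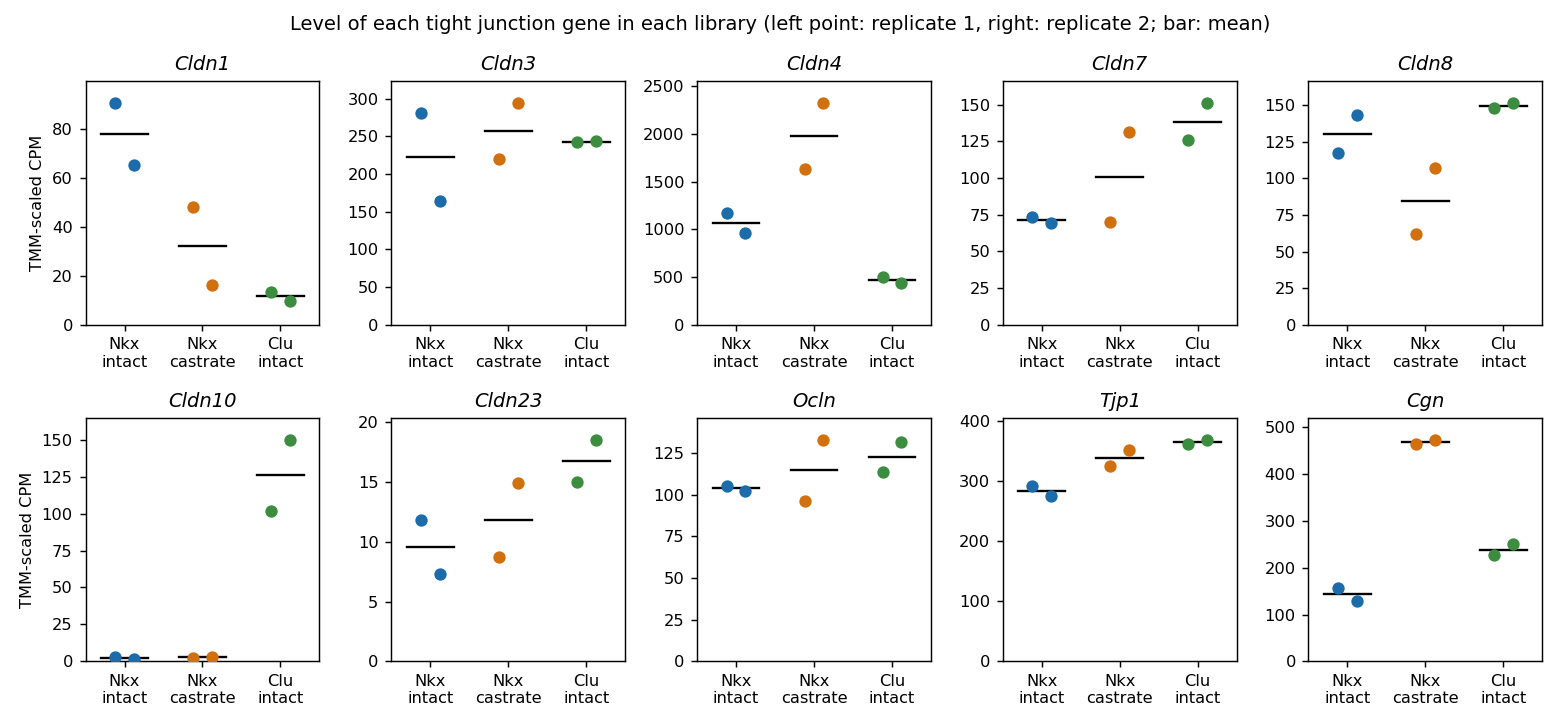
TMM-scaled CPM (linear axis from 0) of the 10 genes in each library, with the left point for replicate 1, the right point for replicate 2 and a bar at the group mean. Cldn10 is near 0 outside Clu intact, Cldn1 steps down from Nkx intact to Clu intact, and Cgn and Cldn4 are highest in Nkx castrate.

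Set against all genes, the number of members called depended on the comparison. The members, like the junction lists below, were chosen with earlier results of these data known. With castration, 1 of the 10 was called higher (Cgn) and 0 lower, where 4.02% of all genes tested were called higher and 4.59% lower. An unadjusted p under 0.05 was found for 4 members, and for 3262 of the 13846 genes tested. DESeq2 and limma-voom each called 2 members higher and 0 lower. In Clu intact against Nkx intact 2 were higher (Cldn10, Cgn) and 2 lower (Cldn1, Cldn4), against 6.29% and 5% of all genes. In Clu intact against Nkx castrate 1 was higher (Cldn10) and 2 lower (Cldn4, Cgn), against 8.82% and 8.1%. The median log2 fold change of the members was 0.25, 0.30 and 0.10 in these comparisons, and that of all genes tested 0.05, -0.01 and 0.00. The castration comparison and Clu intact against Nkx intact share the Nkx intact libraries, and the 2 Clu comparisons share the Clu libraries.

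Groups that did not overlap were common among all genes. The libraries of the compared groups did not overlap for 5 members with castration, 9 in Clu intact against Nkx intact and 7 in Clu intact against Nkx castrate. With castration 3 of these members were higher and 2 lower, in the comparison with Nkx intact 7 higher and 2 lower, and in that with Nkx castrate 4 higher and 3 lower. Of all genes tested, 49.9%, 63.2% and 61.4% did not overlap in the same order, made up of 25.4% higher and 24.6% lower, 31.9% higher and 31.3% lower, and 31.5% higher and 30% lower.

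**Figure D4:**
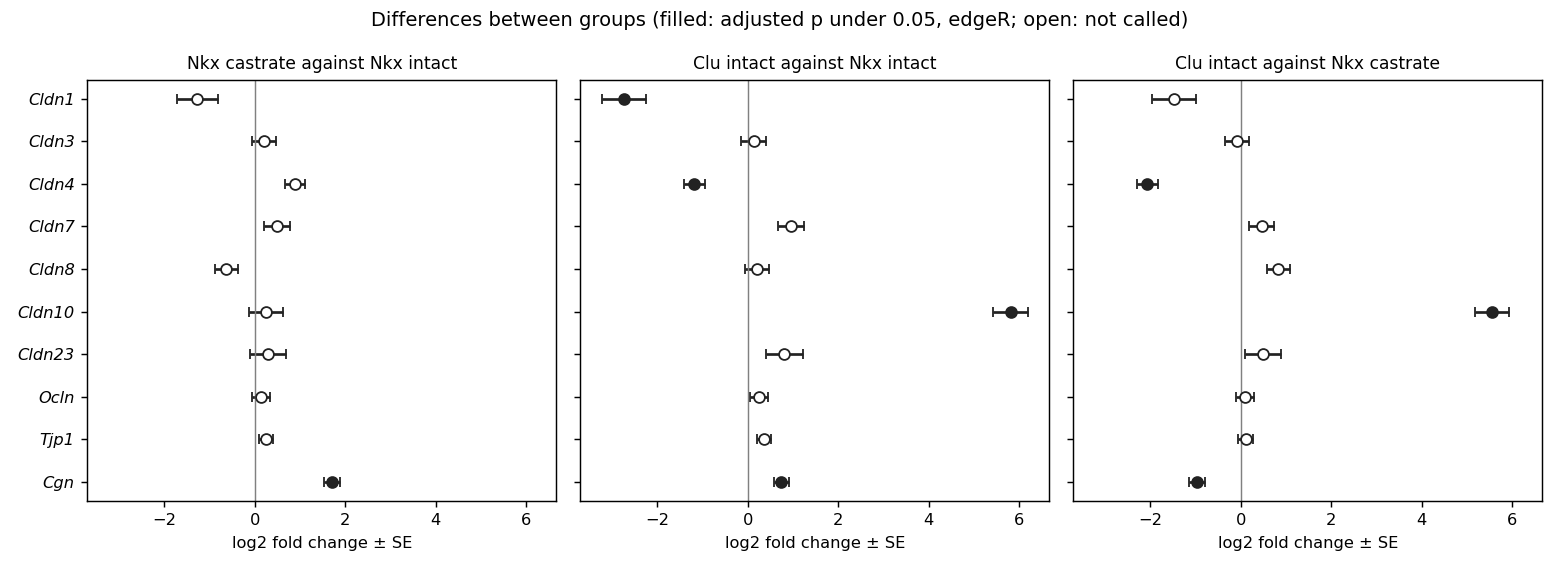
Log2 fold change of each gene with its SE in the 3 comparisons, filled where the adjusted p of edgeR was under 0.05. Cldn10 stands at 5.81 and 5.56 in the Clu comparisons and Cgn at 1.71 with castration, while Ocln, Tjp1 and Cldn3 lie within 0.36 of 0 throughout.

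Proximal luminal markers were highest in Clu intact. The 8 markers summed to 590 and 470 CPM for Nkx intact, 1021 and 1232 CPM for Nkx castrate, and 6169 and 6879 CPM for Clu intact, and all 8 were called higher in Clu intact than in Nkx intact, a list that holds Clu itself. With castration 5 of them were called higher and 2 lower, and in Clu intact against Nkx castrate 7 were higher and 0 lower. Of 8 luminal secretory markers, 6 were called lower and 0 higher with castration. In Clu intact 1 of these markers was called higher and 2 lower than in Nkx intact. Against Nkx castrate 5 were higher and 0 lower in Clu intact. Their summed CPM was 15110 and 19550 for Nkx intact, 277 and 401 for Nkx castrate, and 8783 and 7024 for Clu intact. Of 14 fibroblast and smooth muscle markers, 6 were called higher with castration. Of all genes tested, 4.02% were called higher and 4.59% lower with castration. These shares were 6.29% and 5% in Clu intact against Nkx intact, and 8.82% and 8.1% in Clu intact against Nkx castrate. Over all libraries, the fibroblast and smooth muscle sum peaked at 2432 CPM, for Nkx castrate 1, and was lowest at 593 CPM, for Nkx castrate 2. The 6 urothelial markers summed to 123 and 155 CPM (Nkx intact), 351.5 and 534 (Nkx castrate) and 353 and 393 (Clu intact). With castration 2 of them were called higher and 0 lower, and in Clu intact 3 were higher and 0 lower than in Nkx intact. Against Nkx castrate 1 was higher and 1 lower in Clu intact. These counts stand beside the same shares of all genes tested. The part of these markers, and of the epithelial markers above, in the differences of Cldn10, Cldn4 and Cgn was not tested.

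Most of the rest of the claudin family had few counts or none. Of 24 other claudin and claudin-domain genes in the table, 7 had no count, 14 had counts but stayed under 5 CPM in every library (at most 1.68 CPM), and 3 reached 5 CPM. Cldn12, a claudin without the usual scaffold-binding tail, was at 13.3 to 27.6 CPM, and the claudin-domain gene Cldnd1 at 23.9 to 36.0 CPM, neither of them called. Cldn5, the claudin of blood vessel endothelium, had read counts of 5 and 0 (Nkx intact), 46 and 11 (Nkx castrate) and 590 and 212 (Clu intact). It was called higher in Clu intact than in Nkx intact (log2 fold change 7.11, SE 1.04, edgeR quasi-likelihood adjusted p = 0.0053) and than in Nkx castrate (4.33, SE 0.83, adjusted p = 0.011). The former was 11.82 without Nkx intact 1, which leaves 0 counts in that group and gives a fitted value rather than a bound, 6.32 without Clu intact 1 and 6.16 without Nkx intact 2, where the call was lost (adjusted p = 0.0511). The latter was 3.56 without Clu intact 1, where the call was lost (adjusted p = 0.109), and 5.41 without Nkx castrate 1.

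Endothelial markers moved with Cldn5 in part. The 12 markers summed to CPM values of 95.0 and 63.7 (Nkx intact), 485 and 80.3 (Nkx castrate) and 1116 and 458 (Clu intact), with none at 0 in all libraries, and 5 of them were called higher in Clu intact than in Nkx intact but none in either direction in Clu intact against Nkx castrate. The shares over all genes tested were 6.29% called higher in the former comparison, and 8.82% higher and 8.1% lower in the latter. The adhesion genes Pecam1 and Cdh5 were at 214 and 213 CPM in Clu intact 1 and at 90.2 and 73.5 CPM in Clu intact 2. Cldn5 was, in CPM, 0.478 and 0 (Nkx intact), 2.58 and 0.813 (Nkx castrate) and 49.8 and 19.9 (Clu intact). The part of these markers in the differences of Cldn5 and Cldn10, and of Jam2 below, was not tested.

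Some other membrane proteins of the junction were called in the same comparisons. Of 16 such genes tested, 2 rose and none fell with castration, 4 were higher in Clu intact than in Nkx intact, and 2 were higher and 1 lower in Clu intact than in Nkx castrate. These are 12.5%, 25.0% and 18.75% of the list, where 8.61%, 11.3% and 16.9% of all genes tested were called. Cxadr, the coxsackievirus and adenovirus receptor, rose from a mean of 81.4 to 260.5 CPM with castration (log2 fold change 1.68, SE 0.21) and was at 80.9 CPM in Clu intact, below Nkx castrate (-1.69, SE 0.21). Epcam averaged 341, 595 and 783 CPM in Nkx intact, Nkx castrate and Clu intact and was called in Clu intact against Nkx intact only (1.20, SE 0.23). Jam2, an adhesion molecule also of endothelium, was higher in Clu intact than in Nkx intact (5.10, SE 1.11), or 4.34 without Clu intact 1, and moved with the endothelial sum.

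In the cytoplasmic plaque, relatives of cingulin and ZO-1 were among the genes called. Of 25 plaque and polarity genes tested, 4 rose and 2 fell with castration, 5 were higher and 4 lower in Clu intact than in Nkx intact, and 4 were higher and 5 lower in Clu intact than in Nkx castrate. These are 24.0%, 36.0% and 36.0% of the list, beside the same 8.61%, 11.3% and 16.9% of all genes. Cgnl1, the gene of paracingulin, averaged 65.9 CPM in Nkx intact, 221 CPM in Nkx castrate and 460 CPM in Clu intact, and was called in all 3 comparisons (log2 fold changes 1.75, 2.80 and 1.06, SE 0.19 to 0.20). Tjp3, the gene of ZO-3, averaged 27.2, 59.2 and 209 CPM and was higher in Clu intact than in either Nkx group (2.95 and 1.82, SE 0.32 and 0.31).

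The order of paralogues within a library differed between the groups. Per exon length, Tjp3 relative to Tjp1 was 0.157 and 0.248 (Nkx intact), 0.278 and 0.453 (Nkx castrate) and 1.13 and 1.28 (Clu intact). Cgnl1 relative to Cgn was 0.306 and 0.411 (Nkx intact), 0.314 and 0.409 (Nkx castrate) and 1.53 and 1.44 (Clu intact). The Nkx groups overlapped in the latter ratio, and both Clu libraries were above them.

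Some polarity and adherens junction genes were called as well. The polarity gene Pard6b averaged 75.2 CPM in Nkx intact, 243 CPM in Nkx castrate and 98.3 CPM in Clu intact, and Arhgef2, an exchange factor held at junctions, rose 5.10-fold with castration. Mpdz, a scaffold with many PDZ domains, was 3.05-fold lower in Clu intact than in Nkx intact. Amotl1, an angiomotin, fell 2.64-fold with castration (log2 fold change -1.40, and -2.15 without Nkx castrate 1). Of 10 adherens junction genes, 2 rose with castration (Nectin4, Cdh1), 2 were higher (Ctnnb1, Cdh1) and 1 lower (Nectin1) in Clu intact than in Nkx intact, and 1 was higher (Ctnnb1) and 2 lower (Nectin1, Nectin2) in Clu intact than in Nkx castrate, which is 20.0%, 30.0% and 30.0% of the list. The E-cadherin gene Cdh1 averaged 869, 1471 and 1786 CPM in Nkx intact, Nkx castrate and Clu intact.

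Over these 4 lists, 10 of 55 genes tested were called with castration, 17 in Clu intact against Nkx intact and 16 in Clu intact against Nkx castrate, against 8.61%, 11.3% and 16.9% of all genes called in either direction. The medians of their log2 fold changes were 0.29, 0.36 and 0.12. In the 6 fits that left out a library in turn, Cgnl1 kept its call with castration, Tjp3, Cgnl1, Mpdz and Nectin1 kept theirs in Clu intact against Nkx intact, and Cxadr and Tjp3 in Clu intact against Nkx castrate. Every other call of a gene named here from these lists was lost without at least 1 library. The lost calls of the 4 lists had edgeR quasi-likelihood adjusted p of up to 0.351, 0.276 and 0.322, and no called fold change turned in sign.

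**Figure D5:**
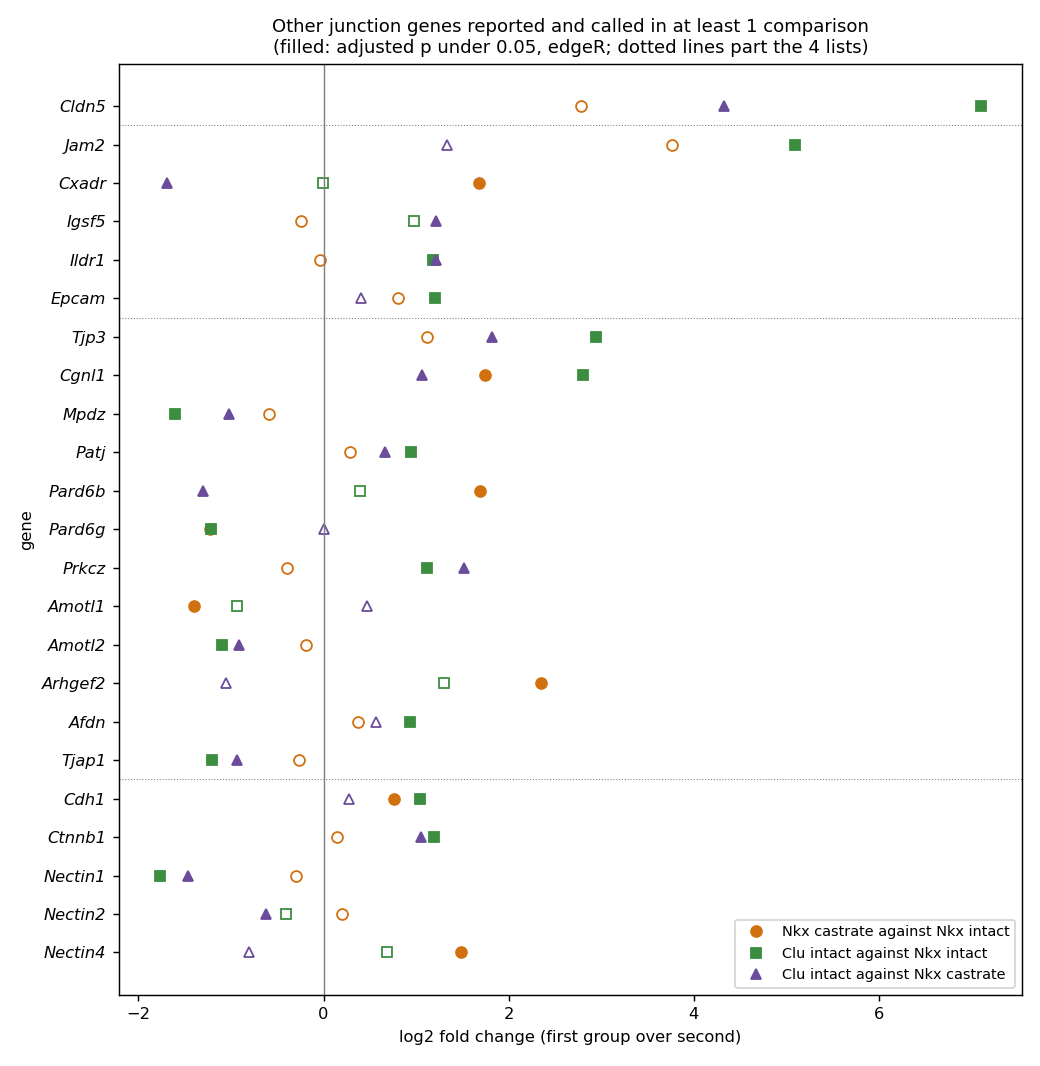
Log2 fold change in the 3 comparisons of each gene of the 4 other junction lists that was called at least once and is reported here, filled where called by edgeR at an adjusted p under 0.05. Tjp3 and Cgnl1 lie to the right in both Clu comparisons, and Cxadr and Pard6b lie to the right with castration and to the left in Clu intact against Nkx castrate.

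The genes most like the 3 most variable members were taken from 9030 others with a mean of at least 10 CPM, by the root mean square difference of centred log2 CPM over the 6 libraries. Nearest to Cldn10 were Slc25a48 (0.24), Gsta4 (0.407) and Muc20 (0.513). The CPM values of Slc25a48 were 4.59 and 2.57 (Nkx intact), 2.58 and 2.96 (Nkx castrate) and 123 and 159 (Clu intact). Nearest to Cldn1 were Irs2 (0.059), Ajuba (0.121) and Vav3 (0.209), and nearest to Cldn4 were Nab2 (0.12), Phf13 (0.153) and Krt18 (0.167). Irs2 went from 751 and 552 CPM in Nkx intact through 388 and 151 CPM in Nkx castrate to 113 and 89.1 CPM in Clu intact. The 6 points of each pair share libraries, scaling and groups.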

How the data were processed

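RNA-seq libraries came from lineage-marked, sorted prostate epithelial cells, made with a strand-marking low-input kit per the labels. The deposited table holds unnormalized counts of reads for each gene symbol in 6 libraries, as its whole numbers and unequal totals show. The submitters' processing notes name STAR 2.7.9a, mouse build GRCm39, featureCounts, Subread 2.0.1 and FastQC 0.11.9. The annotation and the strand setting were not given in the sources used here, so reads of overlapping genes may be shared.

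In R 4.3.3, edgeR 4.0.16 filtered genes (filterByExpr, 13846 kept), scaled by TMM and fitted glmQLFit with a mean for each of the 3 groups over all 6 libraries (3 residual degrees of freedom, biological coefficient of variation 33.7%). Tests were two-sided with Benjamini-Hochberg adjustment over all genes tested. The steps were tested on simulated counts with known changes. Fold changes are first group over second, with model SE. The labels do not link equal replicate numbers, so no pairing entered the model. Alternatives were DESeq2 1.42.0, limma-voom (limma 3.58.1), other scalings and filters, only the groups compared, a replicate block and leaving out each library. Exon lengths came from GENCODE M21, an annotation of an earlier build, used for lengths and overlaps only.

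The members, gene lists and tests were chosen with earlier results of these data known. Named were all members, up to 3 called genes in each direction per junction list and comparison with a mean of at least 5 CPM, by smallest adjusted p, other claudins reaching 5 CPM, and the 3 genes most like each of the 3 most variable members (log2 of CPM plus 0.5). Some genes that this rule would name are not reported here, but are part of the counts.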

Additional observations from a re-analysis of the deposited data

How the results depend on the processing

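Groups of 2 libraries limit precision, and a fit without a library assumes that the lone library of its group varies like the others. The count of members called higher with castration was 1, and 2 with DESeq2 size factors, with library totals, with every gene with a count, with DESeq2, with limma-voom and with the replicate block, where Cldn4 was added each time. Members called lower with castration were 0, and 2 with every gene with a count (Cldn1, Cldn8) and 1 with the replicate block (Cldn1). In Clu intact against Nkx castrate the 1 member called higher became 2, with Cldn8 added, with library totals, every gene with a count, DESeq2, limma-voom and the replicate block. The 2 members called lower there became 3, with Cldn1 added, with every gene with a count, DESeq2 and the replicate block. In Clu intact against Nkx intact the 2 called higher became 3, with Cldn7 added, with every gene with a count, DESeq2, only the groups compared and the replicate block. Under the replicate block edgeR's log2 fold changes of Cldn1 were -1.41 with castration (adjusted p = 0.0234) and -1.34 in Clu intact against Nkx castrate (adjusted p = 0.0198). Without the 100 most abundant genes, which removes Cldn4, the 2 members called lower became 1 in each Clu comparison. Leaving out each library gave ranges of 1 to 3 higher and 0 to 1 lower with castration, 1 to 3 higher and 0 to 2 lower in Clu intact against Nkx intact, and 1 to 3 higher and 1 to 3 lower in Clu intact against Nkx castrate.

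All genes called numbered 1192, 1563 and 2342 in the same order. They were 2300, 2665 and 3518 with every gene with a count, 1925 and 2382 with DESeq2 in the first pair of comparisons, and 671 and 3309 there with only the groups compared. Leaving out a library gave 209 to 2412, 391 to 3351 and 687 to 3854. Other junction genes called higher were 8, 12 and 8, with 1 to 14, 3 to 22 and 2 to 15 on leaving out a library, and those called lower 2, 5 and 8, with 0 to 4, 2 to 6 and 2 to 11. With castration 14 were higher with DESeq2 and with every gene with a count, and 5 higher and 0 lower with only the groups compared, while 1 was lower with DESeq2 size factors and with library totals. With only the groups compared, 22 were higher in Clu intact than in Nkx intact, and 5 higher and 5 lower than in Nkx castrate.

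On leaving out a library, 10 of the 180 member fold changes reversed, none of them called. With castration the ranges were -0.13 to 0.64 for Cldn3, -0.03 to 0.88 for Cldn7, -0.11 to 0.73 for Cldn10, -0.14 to 0.68 for Cldn23 and -0.12 to 0.36 for Ocln. For Cldn3 they were -0.21 to 0.58 and -0.28 to 0.15 in the Clu comparisons, and for Ocln -0.12 to 0.36 in Clu intact against Nkx castrate. Under the other alternatives no member fold change reversed. The cause of these changes was not tested. Equal replicate numbers deviated together with correlations of 0.115, 0.071 and 0.28, not above 0.1 for every pair, and were kept as numbers only.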

Other observations

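Some transcription factors and proteases known to act on junction genes were called between the groups. Of 18 such genes tested, 3 rose and 1 fell with castration, 4 were higher and 2 lower in Clu intact than in Nkx intact, and 5 were higher and 4 lower in Clu intact than in Nkx castrate, while 14, 12 and 9 were not called. Of all genes tested, 4.02% were called higher and 4.59% lower with castration, 6.29% and 5% in Clu intact than in Nkx intact, and 8.82% and 8.1% in Clu intact than in Nkx castrate. Klf5, a zinc-finger factor of epithelial progenitors, averaged 89.8 CPM in Nkx intact, 166 CPM in Nkx castrate and 868 CPM in Clu intact, and was 9.67-fold higher in Clu intact than in Nkx intact (log2 fold change 3.27, SE 0.18, edgeR quasi-likelihood adjusted p = 0.000199). The epithelial ETS factor Elf3 averaged 46.5, 67.8 and 199 CPM, and Ehf, another of that family, 761, 370 and 1254 CPM. Ehf fell 2.06-fold with castration and was 3.39-fold higher in Clu intact than in Nkx castrate.

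Grhl1, a grainyhead-like factor, rose 2.16-fold with castration, and Spint1, an inhibitor of membrane proteases, rose 1.89-fold. Klf4 was 3.80-fold lower and Snai2, a repressor of epithelial junction genes, 4.99-fold lower in Clu intact than in Nkx intact. Ovol1 was 4.72-fold lower in Clu intact than in Nkx castrate. In the 6 fits that left out a library, Klf5 and Elf3 kept their calls in both Clu comparisons and Ehf in Clu intact against Nkx castrate. Every other call of this list was lost without at least 1 library, with edgeR quasi-likelihood adjusted p of up to 0.278, 0.144 and 0.303 for castration, for Clu intact over Nkx intact and for Clu intact over Nkx castrate.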
